A study of Homo sapiens with 12 samples.

Results

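A line derived from ID2 knockout clone 2 and labelled as its rescue was compared with clone 2 itself, in TC71, an established cell line of human Ewing sarcoma. The comparison takes the 3 libraries of each line by their titles, 6 of the 12 libraries of the series, and covers 17084 genes tested of 21569 counted. Both lines carry the ID2 knockout, per the labels, and were grown in DMEM with 10% fetal bovine serum. They differ in the label for ID2 rescue, which is no for clone 2 and yes for the line derived from it. The other 6 libraries are wild-type TC71 and ID2 knockout clone 1, 3 each, and serve here as levels for reference. Clone 2 is a single clone and the line labelled rescue descends from it. The sources used here give neither the vector, the promoter nor the protein level behind the rescue. Total counts were 28331044, 19420408 and 21380709 in clone 2 and 27107395, 25875646 and 26052065 in the libraries labelled rescue.

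ID2 belongs to the ID family of helix-loop-helix proteins, which lack the basic region needed to touch DNA. They pair with E proteins such as TCF3, TCF4 and TCF12, and in doing so keep them from their E-box sites. ID2 is also known for binding the retinoblastoma protein, a brake on entry into S phase, and it is among the genes that the EWSR1-FLI1 fusion of Ewing sarcoma induces. Putting a gene back into a knockout line is a usual control that asks which differences follow the gene.

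Levels are given as CPM, which are counts relative to the library total after TMM scaling, and each mean is given ± SD over n = 3 libraries. Differences are log2 fold changes, or log2 changes in short, the libraries labelled rescue minus clone 2, from the quasi-likelihood test of edgeR, with a standard error (SE). A gene is said to have risen or fallen where its p, adjusted over all 17084 genes by Benjamini and Hochberg, was under 0.05. No label says that the 3 libraries of a line came from separate cultures, so these p-values measure only the spread between libraries, which may be technical. In bulk RNA, fewer cells of a kind and less RNA per cell cannot be told apart.

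By this test 3304 genes rose, 19.3% of those tested, and 3397 fell, 19.9%. The share called in either direction was 39.2%, and the median over all genes was -0.00021. Changes of at least 2-fold went mostly one way: 82 genes rose that far, 0.48% of those tested, and 764 fell that far, 4.47%. The levels of a gene in the 6 libraries did not overlap between the lines for 47.6% of genes. Many of the large falls were in scarce RNAs, since 417 of the 764 genes had a mean under 1 CPM over the 6 libraries. Among the 2272 genes of 100 CPM or more, 782 rose and 461 fell, and 5 of the falls reached 2-fold. Lists of genes with high levels therefore start from a higher share of rises, 34.4% at 100 CPM or more and 31% between 30 and 100 CPM.

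**Figure D1:**
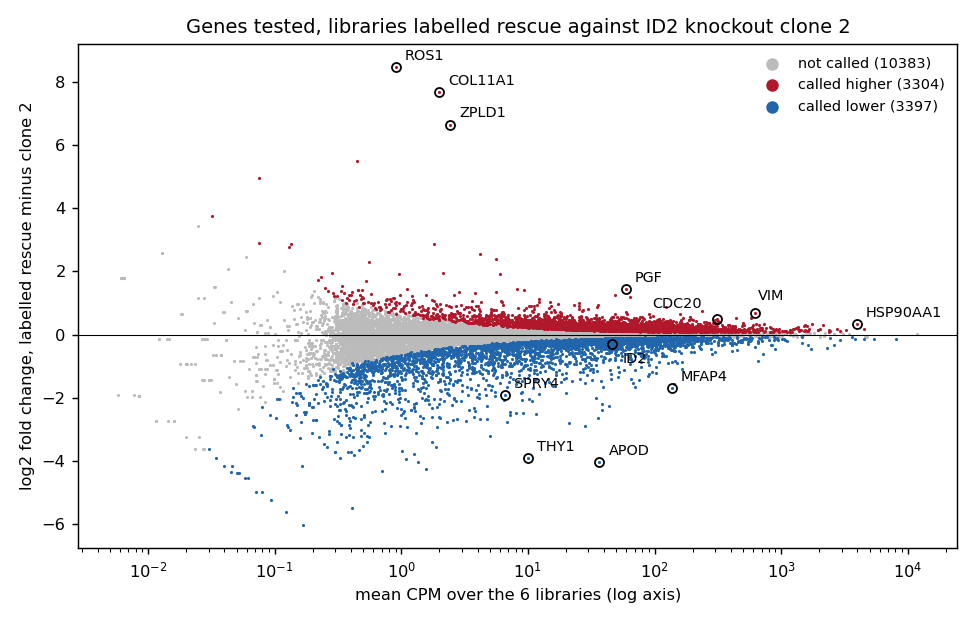
Each point is a tested gene, with its mean CPM over the 6 libraries on a log axis and its log2 fold change on the vertical axis; genes called higher are red, genes called lower blue, and the 23 genes with no read in the 6 libraries are not drawn. Falls reach further than rises at low levels, 3 genes stand alone above 6 on the log2 scale, and ID2 lies just below 0.

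The gene targeted in both knockout clones, ID2 (ENSG00000115738), lies on chromosome 2, 8678845 to 8684453, plus strand in hg38. It stood at 47.8, 50.8 and 54.1 CPM in clone 2 and at 42.0, 41.6 and 40.9 CPM in the libraries labelled rescue. The groups did not overlap, and all 3 libraries labelled rescue were below all 3 of clone 2. The log2 fold change was -0.29 (SE 0.047), with an edgeR adjusted p of 3.52e-06. Wild-type libraries held 77.6, 78.6 and 77.4 CPM and clone 1 17.9, 17.4 and 18.9 CPM, so the line labelled rescue had more ID2 RNA than clone 1 and less than clone 2 or wild-type. ID2 RNA thus went against the label, and the libraries are called labelled rescue throughout. Counts per gene cannot separate reads of a rescue construct from those of the edited gene, and they do not measure ID2 protein.

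The paralog ID3 fell as well, from 122 ± 4.08 to 81.97 ± 1.93 CPM, with library values of 125, 117 and 123 CPM in clone 2 and 84.03, 80.2 and 81.7 CPM in the libraries labelled rescue, a log2 change of -0.57 (SE 0.041). ID1 moved less, from 28.9 ± 2.12 to 25.8 ± 1.36 CPM with a log2 change of -0.17 (SE 0.058), and its libraries came close without overlapping. That call was lost without clone 2 replicate 1 or rescue replicate 2 or 3 (adjusted p = 0.0579 to 0.292). ID4 and the E proteins did not pass the test: log2 fold changes were -0.064 for ID4, -0.039 for TCF4, 0.015 for TCF12 and 0.021 for TCF3. Of the 7 genes of the family and its partners, 3 fell and 0 rose. Next to ID2 on chromosome 2, its antisense neighbour ID2-AS1 went from 4.95 to 3.76 CPM, a log2 change of -0.40, a call that was lost without clone 2 replicate 1 or 3 or rescue replicate 3 (adjusted p = 0.0589 to 0.0917). It overlaps ID2 on the opposite strand. KIDINS220 on the other side stood at 132 and 129.6 CPM, and its difference did not pass the test.

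A group of 3 genes went from almost no reads to a clear level. ROS1 (hg38 chromosome 6, 117288300 to 117425855, minus strand), a receptor tyrosine kinase, had no read in the clone 2 libraries and 1.58, 1.55 and 2.29 CPM in the libraries labelled rescue, 143 reads in all. Against a floor of 3 counts over the group it was at least 42.1-fold higher. Wild-type had no ROS1 read and clone 1 had 1. COL11A1 (hg38 chromosome 1, 102876467 to 103108872, minus strand), a chain of a fibrillar collagen of cartilage, had 1 read in clone 2 and 4.44, 4.30 and 3.21 CPM, 316 reads, in the libraries labelled rescue. The ratio was 279, with an exact 95% interval of 49.8 to 11066 that covers counting error only. ZPLD1 (hg38 chromosome 3, 102099244 to 102479841, plus strand), a membrane protein with a zona pellucida domain, went from 3 reads to 381, at 4.96, 4.57 and 4.89 CPM, a ratio of 112 with an interval of 38.1 to 547. The highest mean of these genes in wild-type or clone 1 was 0.0549 ± 0.0951 CPM, for ZPLD1 in clone 1, so their RNA was high only in the libraries labelled rescue among the 4 lines.

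The genes beside them moved far less, and not all in the same direction. On either side of ROS1, KPNA5 fell with a log2 change of -0.33, while DCBLD1, at 0.11, and GOPC, at -0.056, did not pass the test. Beside COL11A1, OLFM3 rose by 0.15, from 146 to 162 CPM and RNPC3 had a log2 change of -0.15, a call that was lost without clone 2 replicate 1 or 2 or rescue replicate 2 or 3 (adjusted p = 0.101 to 0.214). Beside ZPLD1 on chromosome 3, NFKBIZ had a log2 change of -0.053 that did not pass the test, and ALCAM rose by 0.23.

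The other 12 genes with the largest rises had some RNA in clone 2. FABP7, which binds fatty acids in radial glia and other neural precursors, stood at 1.15, 0.961 and 1.53 CPM in clone 2 and at 6.61, 7.75 and 7.26 CPM in the libraries labelled rescue, a log2 change of 2.56 (SE 0.15). STRA6, the cell surface receptor for retinol binding protein, went from 2.86, 2.58 and 2.04 CPM to 10.3, 8.87 and 9.52 CPM, a log2 change of 1.92 (SE 0.12), and clone 1 was higher still at 28.1 ± 1.05 CPM. TIMP4, an inhibitor of matrix metalloproteinases, went from 1.95, 1.82 and 1.53 CPM to 9.32, 9.96 and 9.02 CPM, a log2 change of 2.40 (SE 0.13). TIMP4 lies inside SYN2, which rose too, from 0.547 ± 0.0529 to 1.21 ± 0.0815 CPM, and reads of overlapping genes cannot be told apart where the strand setting of the counting is not given. SCEL, a precursor of the cornified envelope of epithelia, went from 0.314, 0.607 and 0.417 CPM to 2.90, 3.099 and 3.48 CPM.

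PGF, placental growth factor, a ligand of the VEGF family, had the highest level among them. It stood at 30.4, 32.9 and 33.1 CPM in clone 2 and at 91.3, 86.9 and 81.96 CPM in the libraries labelled rescue, a log2 change of 1.44 (SE 0.06), and wild-type held 24.6 ± 3.68 CPM. PRPH, the intermediate filament peripherin of peripheral neurons, rose from 4.38 ± 0.351 to 12.2 ± 1.41 CPM, towards 18.9 ± 1.34 CPM in wild-type. Homeobox gene DLX1 rose from 5.104 ± 0.617 to 13.5 ± 0.8098 CPM, the lipoprotein and reelin receptor VLDLR from 1.61 ± 0.134 to 4.08 ± 0.416 CPM, and the zinc finger factor MECOM from 3.18 ± 0.0675 to 8.03 ± 0.615 CPM. PCSK1, a prohormone convertase, rose from 0.869 ± 0.239 to 3.37 ± 0.337 CPM, the membrane protein MYOF from 0.402 ± 0.0165 to 1.52 ± 0.198 CPM and the secreted protease PRSS23 from 0.584 ± 0.151 to 1.62 ± 0.242 CPM. For PRPH the libraries labelled rescue lay between clone 2 and wild-type, whereas for PGF, DLX1, VLDLR and MECOM they lay above both.

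**Figure D2:**
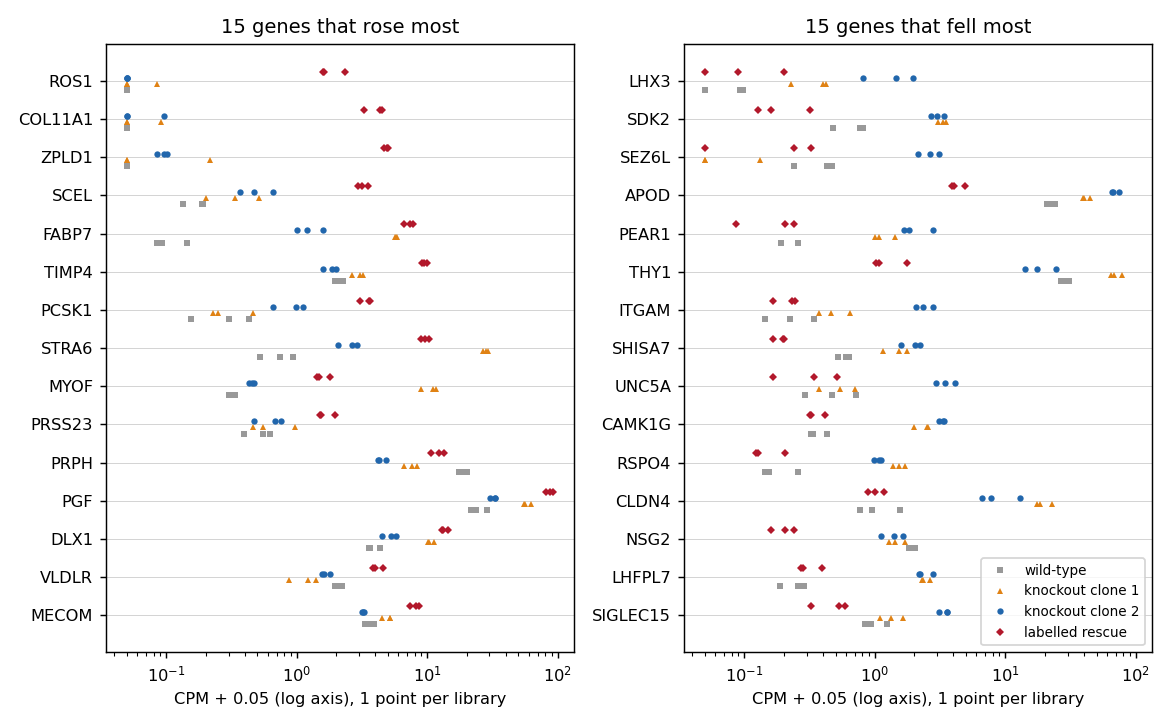
Points show CPM plus 0.05 on a log axis for 1 library each, for the 15 genes that rose most (left) and the 15 that fell most (right), with wild-type as grey squares, clone 1 as orange triangles, clone 2 as blue circles and the libraries labelled rescue as red diamonds. Blue and red points do not overlap for any of the 30 genes, a condition of their choice, and the grey squares show on which side of both lines wild-type lies.

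The largest fall at a substantial level was that of APOD, an apolipoprotein that carries small lipids. APOD (hg38 chromosome 3, 195568702 to 195584205, minus strand) stood at 66.2, 67.4 and 74.3 CPM in clone 2 and at 3.82, 3.99 and 4.82 CPM in the libraries labelled rescue, a log2 change of -4.04 (SE 0.077) with an edgeR adjusted p of 1.22e-33. Wild-type held 22.4 ± 1.64 CPM and clone 1 41.2 ± 2.69 CPM, so the line labelled rescue was the lowest of the 4. THY1 (CD90), a surface glycoprotein of mesenchymal and nerve cells, went from 17.5, 14.2 and 24.6 CPM to 1.03, 0.969 and 1.72 CPM, a log2 change of -3.92 (SE 0.18), against 28.5 ± 1.97 CPM in wild-type and 70.03 ± 6.83 CPM in clone 1. CLDN4, a claudin of tight junctions, went from 7.68, 6.53 and 12.96 CPM to 0.954, 1.12 and 0.841 CPM, a log2 change of -3.21 (SE 0.22), against 1.04 ± 0.4205 CPM in wild-type and 19.4 ± 2.72 CPM in clone 1.

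The remaining genes among the 15 largest falls had means of 1.01 ± 0.0608 to 3.45 ± 0.597 CPM in clone 2. LHX3, a LIM homeobox factor of motor neurons and the pituitary, went from 1.396, 0.759 and 1.898 CPM to 0, 0.0387 and 0.153 CPM, 96 reads to 5. SEZ6L, a neuronal membrane protein, fell from 2.57 ± 0.4904 to 0.154 ± 0.139 CPM and SDK2, an adhesion molecule of synapses, from 2.97 ± 0.352 to 0.152 ± 0.102 CPM. UNC5A, a netrin receptor, fell from 3.45 ± 0.597 to 0.2896 ± 0.171 CPM, SHISA7, a partner of inhibitory receptors, from 1.895 ± 0.327 to 0.139 ± 0.0197 CPM, CAMK1G, a calmodulin kinase, from 3.22 ± 0.143 to 0.302 ± 0.0564 CPM and NSG2, a neuronal endosome protein, from 1.34 ± 0.272 to 0.152 ± 0.0406 CPM. PEAR1, a platelet receptor, ITGAM, the myeloid integrin CD11b, RSPO4, an enhancer of WNT signalling, the tetraspan protein LHFPL7 and the sialic acid lectin SIGLEC15 had log2 changes of -3.96, -3.78, -3.25, -3.11 and -2.95. Wild-type means of these 12 genes ran from 0.0298 ± 0.0259 to 1.87 ± 0.0915 CPM. NSG2 was the only one of the 12 with a wild-type mean above that of clone 2.

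Among genes with a mean of 50 CPM or more the falls were also larger than the rises. MFAP4, a microfibril protein, went from 225, 207 and 193 CPM to 63.6, 63.7 and 65.7 CPM, a log2 change of -1.70 (SE 0.04), whereas wild-type held 395 ± 3.54 CPM. UTS2, the peptide hormone urotensin 2, fell from 107 ± 10.1 to 33.7 ± 2.31 CPM and SCNN1G, a subunit of the epithelial sodium channel, from 213 ± 20.1 to 72.02 ± 6.897 CPM. TIMP3, an inhibitor of metalloproteinases, fell from 101 ± 6.22 to 34.9 ± 1.08 CPM, NGFR, the low affinity neurotrophin receptor, from 73.8 ± 5.19 to 29.3 ± 1.52 CPM and HAP1, a partner of huntingtin, from 128 ± 7.11 to 51.1 ± 1.57 CPM. ETV5 and DUSP6, which belong to the response to ERK signalling, are described with their list. The abundant rises were led by PGF and MT2A, a metallothionein, which went from 40.2, 39.2 and 36.6 CPM to 88.4, 90.97 and 88.4 CPM, a log2 change of 1.20 (SE 0.051). KCNE3, an accessory subunit of potassium channels, rose from 86.96 ± 1.76 to 159 ± 0.621 CPM, the LIM protein CRIP2 from 178 ± 5.901 to 300.2 ± 5.03 CPM, the zinc finger factor ZIC2 from 44.7 ± 2.02 to 73.4 ± 3.79 CPM and the intermediate filament VIM from 474 ± 9.38 to 762 ± 34.5 CPM. RBM3, a cold-induced RNA binding protein, rose from 123 ± 9.75 to 194 ± 15.7 CPM. Wild-type means were 223 ± 2.84 CPM for KCNE3 and 192 ± 8.98 CPM for RBM3, both above clone 2.

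The largest gains in CPM were in housekeeping RNAs. HSP90AA1, a chaperone, rose from 3494 ± 64.7 to 4397 ± 140.0 CPM, a log2 change of 0.33 (SE 0.029). The glycolytic enzymes ENO1, GAPDH and PKM rose with log2 changes of 0.17, 0.31 and 0.14, TUBB, a tubulin, with 0.34, HSPA8, a chaperone, with 0.17, the translation factor EIF4G2 with 0.29 and ACTB, actin, with 0.26. Of the 8 largest losses in CPM, 6 were mitochondrial transcripts. Among the others was TIMP1, an inhibitor of metalloproteinases, which fell from 1995 ± 67.5 to 1443 ± 57.3 CPM. TIMP1 held 749 ± 1.53 CPM in wild-type.

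Groups of genes were then described by 55 lists of pathways, complexes and cell type markers. Each list is given by the number of its tested members that rose or fell, to be read beside 19.3% and 19.9% over all genes, and by its median log2 fold change beside -0.00021. The rule for naming took the 4 called members of a list with the largest changes. Some of these are not reported here, so a named member need not be among the largest of its list. Members named beyond the 4 largest of a list were chosen after their values were seen. For lists of scarce genes the filter on low counts matters, because a gene that is low elsewhere enters the test through the line in which it is high; their counts describe the members that passed and no more.

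**Figure D3:**
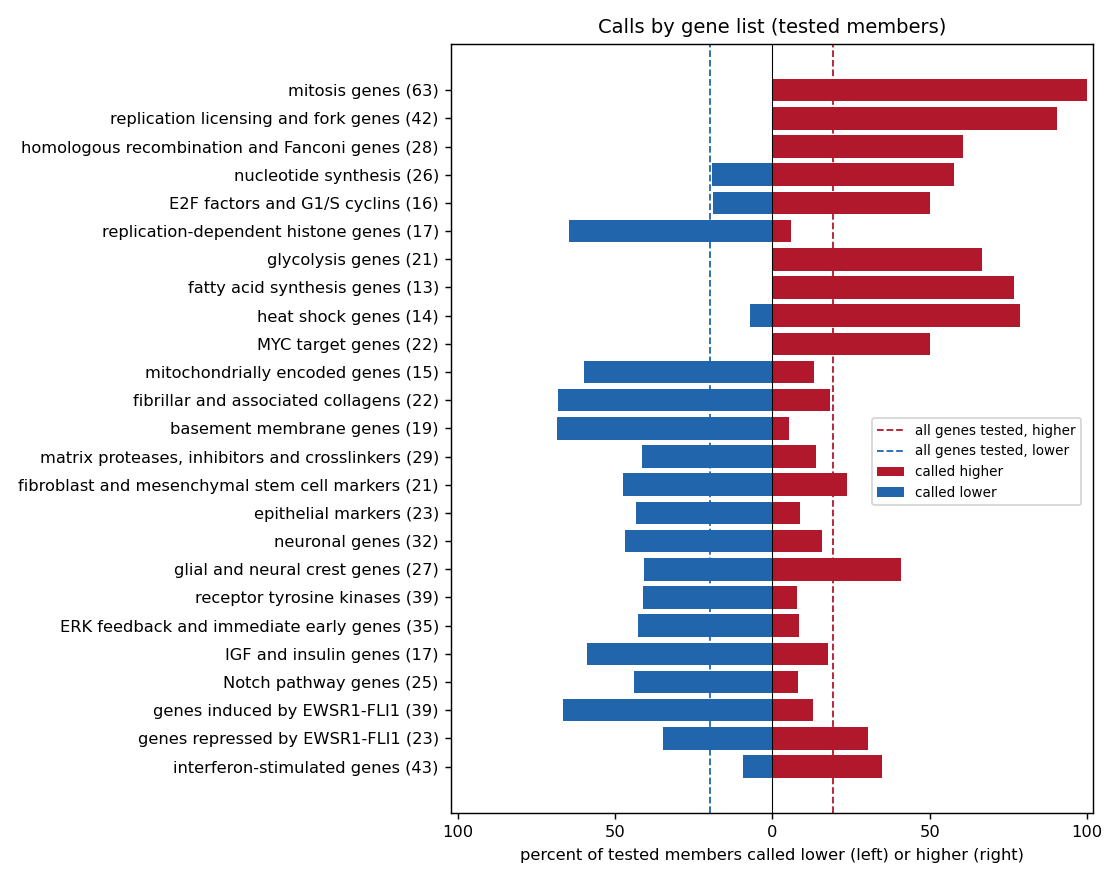
Bars give the percent of tested members of 25 gene lists called higher (red, right) or lower (blue, left), with the number tested in parentheses and dashed lines at the 19.3% and 19.9% of all genes tested. All 63 mitosis genes were called higher, and 15 of 22 collagen and 13 of 19 basement membrane genes were called lower.

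Genes of mitosis rose together by small steps. All 63 of the list were tested and all 63 rose, with a median log2 fold change of 0.31 and a range of 0.12 to 0.65. PTTG1, securin, which holds back the separation of sister chromatids until anaphase, stood at 37.5, 37.9 and 39.03 CPM in clone 2 and at 58.7, 62.2 and 58.9 CPM in the libraries labelled rescue, a log2 change of 0.65 (SE 0.046). NDC80, a kinetochore subunit that binds microtubules, went from 44.99, 43.2 and 50.5 CPM to 64.6, 70.2 and 66.98 CPM, a log2 change of 0.54 (SE 0.048). KIF23, a kinesin of cytokinesis, went from 59.8, 57.03 and 59.7 CPM to 86.6, 84.6 and 82.4 CPM and HMMR, a spindle protein, from 45.7, 51.4 and 45.0 CPM to 66.8, 69.6 and 66.6 CPM. The groups did not overlap for any of these 4 genes, and each gene was lower in all clone 2 libraries. Among the regulators, the mitotic kinase CDK1 rose from 196 ± 1.65 to 246 ± 10.9 CPM, its partner CCNB1 from 214 ± 2.34 to 279 ± 11.3 CPM, PLK1 from 245 ± 8.46 to 303 ± 1.39 CPM and AURKA from 119.9 ± 0.661 to 156 ± 6.31 CPM. The summed level of the 63 genes was 7319 to 7413 CPM in clone 2 and 9051 to 9299.9 CPM in the libraries labelled rescue, below the 9516 to 9637 CPM of wild-type. Over the alternatives of processing, 62 to 63 members rose and 0 fell.

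The promoters of the listed mitosis genes were read from RefSeq (GRCh38.p14), from 250 bases before to 50 after the start. A pair of motifs were searched on both strands: TTTGAA, the core of the cell cycle genes homology region, and CCAAT, the CCAAT box. The table matched 54 of the 63 genes. TTTGAA was found in 37 of them, 68.5%, against 15.4% of all 27305 promoters of the table. CCAAT was found in 39, 72.2%, against 35.7%, and both in 29, 53.7%, against 6.08%. Neither motif, nor its reverse complement, contains the other. Shown are the 4 promoters with both motifs whose genes had the largest rises, 5′ to 3′ on the gene's strand, with either motif, or its reverse complement, in capitals. These matches are a description of the letters in the window, not evidence of binding in these cells. The shares belong to the list as chosen and do not depend on the changes measured here.

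KIF23 (chr15:69414099-69414398, plus strand): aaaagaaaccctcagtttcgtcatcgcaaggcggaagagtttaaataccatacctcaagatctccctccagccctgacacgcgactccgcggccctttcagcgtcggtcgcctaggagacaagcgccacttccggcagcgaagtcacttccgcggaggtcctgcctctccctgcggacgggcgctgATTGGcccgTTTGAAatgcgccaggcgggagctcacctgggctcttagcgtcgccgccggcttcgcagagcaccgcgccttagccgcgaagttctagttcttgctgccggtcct
HMMR (chr5:163460382-163460681, plus strand): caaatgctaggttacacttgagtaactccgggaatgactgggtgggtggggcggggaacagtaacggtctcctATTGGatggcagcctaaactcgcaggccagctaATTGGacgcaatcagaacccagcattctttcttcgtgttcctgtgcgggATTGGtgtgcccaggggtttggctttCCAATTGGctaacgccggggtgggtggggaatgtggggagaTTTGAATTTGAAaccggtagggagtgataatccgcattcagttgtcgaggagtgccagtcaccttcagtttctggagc
KIF11 (chr10:92592880-92593179, plus strand): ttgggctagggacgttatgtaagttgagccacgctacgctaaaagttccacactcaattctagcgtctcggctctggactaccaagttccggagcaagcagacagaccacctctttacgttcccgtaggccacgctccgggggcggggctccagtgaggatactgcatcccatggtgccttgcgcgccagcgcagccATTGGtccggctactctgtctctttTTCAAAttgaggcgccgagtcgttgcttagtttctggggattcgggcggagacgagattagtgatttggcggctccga
CDC20 (chr1:43358731-43359030, plus strand): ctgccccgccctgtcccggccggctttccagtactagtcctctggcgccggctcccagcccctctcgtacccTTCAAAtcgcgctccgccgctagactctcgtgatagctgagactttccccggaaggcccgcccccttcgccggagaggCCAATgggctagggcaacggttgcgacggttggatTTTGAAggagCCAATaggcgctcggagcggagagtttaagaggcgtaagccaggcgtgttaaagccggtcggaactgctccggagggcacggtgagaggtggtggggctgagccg

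KIF11, the spindle motor that pushes poles apart, rose from 139 ± 5.42 to 197 ± 4.91 CPM and CDC20, an activator of the anaphase promoting complex, from 258 ± 7.19 to 363 ± 6.503 CPM, with log2 changes of 0.51 (SE 0.035) and 0.49 (SE 0.035). In the HMMR promoter 2 adjoining copies of TTTGAA follow 5 CCAAT matches, whereas KIF23 and KIF11 each hold 1 of each. Of the 42 replication genes described next, 37 had a promoter in the table, with TTTGAA in 0 of them and CCAAT in 21, 56.8%.

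Replication genes rose as well. Of 42 genes that license origins or work at the fork, 38 rose and 0 fell, with a median of 0.24. MCM5 and MCM7, subunits of the replicative helicase, went from 222, 226 and 205 CPM to 288, 292 and 288 CPM and from 440.2, 444 and 417 CPM to 563, 568 and 554 CPM, log2 changes of 0.41 (SE 0.037) and 0.37 (SE 0.035). CDC45, which joins the helicase at the origin, rose from 107 ± 3.08 to 138 ± 3.90 CPM, GINS4 from 26.1 ± 1.57 to 36.03 ± 0.613 CPM and the sliding clamp PCNA from 307 ± 5.79 to 379 ± 12.5 CPM. With upper quartile scaling 32 of them rose. Of 28 genes of homologous recombination and the Fanconi pathway 17 rose and 0 fell, FANCD2 from 90.3 ± 1.601 to 119.7 ± 1.24 CPM and BRCA1 from 48.6 ± 2.03 to 62.3 ± 2.44 CPM.

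Enzymes that make nucleotides feed replication. Of 26 tested, 15 rose, 5 fell and 6 did not pass the test. RRM2, the regulated subunit of ribonucleotide reductase, went from 468, 479 and 472 CPM to 672, 702 and 654 CPM, a log2 change of 0.52 (SE 0.031), to above the 469.8 ± 4.11 CPM of wild-type. TYMS, thymidylate synthase, rose from 51.5 ± 0.771 to 71.9 ± 4.04 CPM, TK1, thymidine kinase, from 159 ± 7.43 to 216 ± 1.14 CPM and DUT from 113 ± 2.698 to 149.6 ± 7.84 CPM. The members that fell were MTHFD2, from 157 ± 2.66 to 137 ± 2.13 CPM, SHMT2, from 509 ± 4.05 to 449 ± 7.72 CPM, and CAD, from 998 ± 18.8 to 885 ± 22.1 CPM, with IMPDH1 and ATIC falling less. The last 2 calls were lost without some libraries, IMPDH1 without clone 2 replicate 1 or 3 or rescue replicate 3 (adjusted p = 0.05 to 0.223) and ATIC without clone 2 replicate 1 or 3 or rescue replicate 1 or 3 (adjusted p = 0.123 to 0.317).

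Of 16 E2F factors and cyclins of the step from G1 to S phase, 8 rose, 3 fell and 5 did not pass the test. E2F8, a repressor that peaks in S phase, rose from 14.4 ± 0.695 to 22.2 ± 0.161 CPM and CCNA2, cyclin A, from 79.2, 74.9 and 79.9 CPM to 116, 122 and 112 CPM, log2 changes of 0.62 (SE 0.064) and 0.58 (SE 0.04). E2F2 rose from 62.9 ± 2.08 to 83.3 ± 1.92 CPM and the phosphatase CDC25A from 71.6 ± 0.869 to 90.8 ± 2.06 CPM, while SKP2, E2F7 and E2F6 fell with log2 changes of -0.20, -0.17 and -0.15. The call of E2F7 was lost without clone 2 replicate 2 or rescue replicate 2 (adjusted p = 0.0715 to 0.0731) and that of E2F6 without clone 2 replicate 3 (adjusted p = 0.0868). Upstream of these, the retinoblastoma gene RB1, to whose product ID2 is known to bind, stood at 106 ± 4.59 and 106 ± 2.49 CPM, and its difference did not pass the test. Its relative RBL1 rose from 45.2 ± 2.93 to 57.7 ± 2.14 CPM. CDKN1A, the CDK inhibitor p21 and a target of p53, went from 83.8, 78.6 and 81.1 CPM to 46.7, 48.2 and 48.9 CPM, a log2 change of -0.76 (SE 0.046), whereas the CDK4 and CDK6 inhibitor CDKN2C rose from 62.8 ± 0.825 to 87.9 ± 2.46 CPM. The p53 target list as a whole was mixed, with 6 of 24 up and 9 down. Its falls were led by GDF15, a stress cytokine, from 1.19 ± 0.397 to 0.408 ± 0.195 CPM, and BTG2, an antiproliferative gene, from 27.1, 28.6 and 31.5 CPM to 11.2, 10.7 and 11.7 CPM, and its largest rise was the repair gene DDB2, from 13.1 ± 0.164 to 17.6 ± 0.7197 CPM.

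Replication-dependent histone genes, whose transcripts normally end in a stem loop without a poly(A) tail, went the other way. Only 17 of 59 passed the filter in these poly(A) libraries, of which 11 fell and 1 rose, with a median of -0.61. H2AC6 stood at 119, 114 and 148 CPM in clone 2 and at 50.1, 50.6 and 60.2 CPM in the libraries labelled rescue, a log2 change of -1.25 (SE 0.068). H2BC5 fell from 60.5 ± 4.11 to 28.02 ± 3.06 CPM, H2BC4 from 16.7 ± 0.867 to 6.12 ± 0.442 CPM and H4C8 from 8.78 ± 1.15 to 3.64 ± 0.4802 CPM. Histone genes are near-identical copies, so the split of reads between them is uncertain. The summed level of the list was 324 to 347 CPM in wild-type, 435 to 501 CPM in clone 2 and 274 to 304 CPM in the libraries labelled rescue.

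Among collagens of the interstitial matrix falls outnumbered rises. Of 22 fibrillar and associated collagen genes tested, of 28 listed, 4 rose, 15 fell and 3 did not pass the test, and the median was -0.57. COL1A1, a chain of type I collagen, stood at 64.5, 58.7 and 72.03 CPM in clone 2 and at 12.7, 11.7 and 12.8 CPM in the libraries labelled rescue, a log2 change of -2.39 (SE 0.062), against 27.4 ± 1.14 CPM in wild-type and 109.6 ± 2.85 CPM in clone 1. Its partner chain COL1A2 did not pass the filter, at 0.0439 ± 0.00811 and 0.0506 ± 0.0224 CPM. All 3 chains of type VI collagen in the list fell: COL6A3 from 13.6 ± 0.957 to 2.42 ± 0.452 CPM, COL6A1 from 10.5 ± 1.21 to 2.52 ± 0.274 CPM and COL6A2 from 8.62 ± 1.45 to 2.46 ± 0.253 CPM. COL3A1 went the other way, from 58.3 ± 3.77 to 80.3 ± 1.18 CPM, as did COL24A1, COL21A1 and COL11A1, though the call of COL21A1 was lost without clone 2 replicate 3 (adjusted p = 0.109). ELN, elastin, which is listed with other matrix proteins, went from 70.1, 69.2 and 76.4 CPM to 15.9, 13.2 and 16.1 CPM, a log2 change of -2.25 (SE 0.057). That list had 4 rises and 7 falls among 21 tested, with FN1, fibronectin, falling from 78.7 ± 4.91 to 48.1 ± 0.875 CPM, TNC, tenascin C, from 42.5 ± 2.12 to 25.6 ± 1.92 CPM, and SPARC rising from 390.2 ± 5.93 to 473 ± 12.96 CPM.

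Basement membrane genes fell in 13 of 19 tested and rose in 1, with a median of -0.61. The laminin chain LAMB3 went from 5.41, 5.77 and 6.99 CPM to 1.54, 1.94 and 1.83 CPM, a log2 change of -1.77 (SE 0.15), LAMA5 fell from 50.4 ± 1.46 to 30.2 ± 2.74 CPM, LAMA3 from 8.72 ± 0.193 to 4.89 ± 0.5102 CPM and the proteoglycan HSPG2, perlecan, from 34.3 ± 4.03 to 22.4 ± 1.87 CPM. The member that rose was LAMA2, the laminin chain of muscle, from 42.98 ± 1.84 to 55.6 ± 2.79 CPM. COL4A5 and COL4A6 were also called lower, but from 4 and 10 reads in clone 2, and the calls were lost, COL4A5 without clone 2 replicate 2 or 3 or rescue replicate 1, 2 or 3 (adjusted p = 0.0587 to 0.129) and COL4A6 without clone 2 replicate 1 or 2 or rescue replicate 1, 2 or 3 (adjusted p = 0.0505 to 0.253). Of 29 matrix proteases, inhibitors and crosslinkers 12 fell and 4 rose. The 4 tissue inhibitors of metalloproteinases differed: TIMP1, TIMP2 and TIMP3 fell, by log2 changes of -0.47, -0.30 and -1.54, and TIMP4 rose by 2.40. The call of TIMP2 was lost without clone 2 replicate 2 or rescue replicate 3 (adjusted p = 0.0661 to 0.0699). ADAMTS10, a secreted protease of microfibrils, fell from 13.2 ± 0.634 to 4.72 ± 0.6802 CPM and LOXL1, a crosslinker of elastin, rose from 27.7 ± 1.45 to 39.5 ± 0.754 CPM.

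Among receptor tyrosine kinases, which start growth signals at the cell surface, falls outnumbered rises. Of 39 receptor tyrosine kinases tested, 3 rose, 16 fell and 20 did not pass the test, with a median of -0.15. PDGFRB, a receptor of mesenchymal cells, stood at 66.8, 66.6 and 65.4 CPM in clone 2 and at 23.6, 23.2 and 27.3 CPM in the libraries labelled rescue, a log2 change of -1.42 (SE 0.051). All 3 libraries labelled rescue were below those of clone 2. EPHA2 fell from 39.9 ± 2.72 to 19.7 ± 1.51 CPM and ALK from 19.1 ± 1.39 to 11.6 ± 1.06 CPM. AXL and EPHB2 fell from levels under 1 CPM, with log2 changes of -2.27 and -2.26. Besides ROS1, the rises were FGFR3, from 11.3 ± 0.756 to 17.2 ± 1.301 CPM, and TYRO3, from 39.9 ± 2.14 to 46.9 ± 1.04 CPM.

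Of 35 ERK feedback and immediate early genes, 15 fell and 3 rose, with a median of -0.17. DUSP6, the phosphatase that switches ERK off, stood at 91.98, 88.9 and 104 CPM in clone 2 and at 35.2, 37.2 and 34.1 CPM in the libraries labelled rescue, a log2 change of -1.42 (SE 0.053), and wild-type held 29.8 ± 2.77 CPM. SPRY4, an inhibitor of the pathway, went from 10.4, 10.7 and 10.3 CPM to 2.97, 2.91 and 2.33 CPM, a log2 change of -1.93 (SE 0.11). ETV5, an ETS factor induced by ERK, went from 111, 108 and 112 CPM to 38.8, 39.9 and 42.3 CPM, and the immediate early factors EGR1 from 50.7 ± 4.06 to 27.6 ± 0.704 CPM, EGR3 from 2.202 ± 0.394 to 0.633 ± 0.112 CPM and EGR4 from 2.33 ± 0.294 to 0.5796 ± 0.0819 CPM. Of these 6 genes ETV5, SPRY4 and EGR3 ended below their wild-type means of 82.8 ± 3.303, 3.62 ± 0.254 and 1.23 ± 0.276 CPM, and the other 3 did not. The rises in the list were ETV1, from 11.5 ± 1.21 to 18.7 ± 0.938 CPM, SPRY2 from 6.12 ± 0.473 to 7.61 ± 0.864 CPM and DUSP5 from 11.8 ± 0.5902 to 13.9 ± 0.4196 CPM. The call of SPRY2 was lost without clone 2 replicate 3 or rescue replicate 1 or 2 (adjusted p = 0.0542 to 0.0731) and that of DUSP5 without clone 2 replicate 1 (adjusted p = 0.0617). Its summed level was 2482 to 2542 CPM in clone 2 and 2117 to 2146 CPM in the libraries labelled rescue.

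IGF signalling has a special place in Ewing sarcoma, which depends on the IGF1 receptor in many models. Of 17 genes of the pathway 10 fell and 3 rose, with a median of -0.27. The ligand IGF1 fell from 31.7 ± 1.21 to 21.6 ± 0.808 CPM. Among binding proteins IGFBP4 went from 20.8, 22.5 and 29.6 CPM to 10.3, 11.2 and 11.8 CPM, a log2 change of -1.12 (SE 0.086), IGFBP5 fell from 18.3 ± 1.79 to 10.1 ± 0.619 CPM and IGFBP2 from 102 ± 2.56 to 78.6 ± 3.05 CPM. PAPPA, a protease that frees IGF by cleaving IGFBP4, fell from 56.8 ± 3.16 to 41.1 ± 4.702 CPM. STC1, a stanniocalcin, rose from 2.33 ± 0.376 to 4.903 ± 0.245 CPM and IGFBP6 from 1.64 ± 0.373 to 2.31 ± 0.221 CPM, the latter a call lost without clone 2 replicate 2 or rescue replicate 1 or 3 (adjusted p = 0.089 to 0.185). Without rescue replicate 1, 1 gene of the list rose. The insulin receptor INSR fell from 28.01 ± 0.838 to 20.4 ± 0.301 CPM, and its adaptors IRS1 and IRS2 fell with log2 changes of -0.20 and -0.29.

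The labelled cell type was checked by its markers. CD99, the surface marker used in diagnosis, stood at 499 ± 16.5 and 434 ± 18.1 CPM, PRKCB at 486 ± 11.3 and 397 ± 11.96 CPM and STEAP1 at 214 ± 15.5 and 201 ± 6.34 CPM, and the lowest of the 16 tested, ST8SIA1, at 10.8 ± 1.81 and 10.1 ± 0.5795 CPM. Of these 16 markers 8 fell and 3 rose. NR0B1, a nuclear receptor that the EWSR1-FLI1 fusion induces through a microsatellite, stood at 217, 195 and 229 CPM in clone 2 and at 119, 112 and 118 CPM in the libraries labelled rescue, a log2 change of -0.88 (SE 0.044), to below the 140.0 ± 6.92 CPM of wild-type. NKX2-2 fell from 21.4 ± 2.63 to 16.5 ± 0.447 CPM, BCL11B from 42.6 ± 1.05 to 31.5 ± 1.82 CPM and PAX7 from 119 ± 12.1 to 84.9 ± 4.67 CPM. Reads of FLI1, whose 3′ part the fusion holds, stood at 87.1 ± 2.26 and 89.6 ± 2.25 CPM and did not pass the test, and EWSR1 rose from 409 ± 18.3 to 463 ± 5.37 CPM. Gene counts do not separate the fusion from the normal genes.

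A longer list of genes induced by the fusion fell in 26 of 39 tested and rose in 5, with a median of -0.26. LOXHD1 went from 108, 110.1 and 96.8 CPM to 52.9, 48.0 and 54.2 CPM, a log2 change of -1.02 (SE 0.046). IL1RAP, a receptor subunit of interleukin 1, fell from 354 ± 5.21 to 243 ± 10.1 CPM, PCSK2, a prohormone convertase, from 170.1 ± 6.90 to 117 ± 2.99 CPM, JARID2, a polycomb cofactor, from 117 ± 2.18 to 84.3 ± 1.18 CPM and CCK, the hormone cholecystokinin, from 3.17 ± 0.392 to 0.644 ± 0.0637 CPM. ID2 itself is a member and among the falls. The rises were AURKA, VRK1, SOX2, CAV1 and NPY1R, with log2 changes of 0.38, 0.28, 0.23, 0.16 and 0.12. The call of NPY1R was lost without clone 2 replicate 1 or 2 or rescue replicate 1 (adjusted p = 0.0663 to 0.118). The summed level was 11926 to 12070.2 CPM in wild-type, 12134 to 12448 CPM in clone 2 and 10671 to 10853 CPM in the libraries labelled rescue. Genes repressed by the fusion were divided, with 7 rises and 8 falls among 23: VIM went from 484, 473 and 466 CPM to 738, 801 and 745 CPM, ANXA2 rose from 454 ± 18.6 to 559 ± 10.7 CPM and TGFBR2 from 11.9 ± 0.365 to 17.2 ± 0.629 CPM, while COL1A1, COL6A1, IGFBP5, TNC and FN1 fell.

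**Figure D4:**
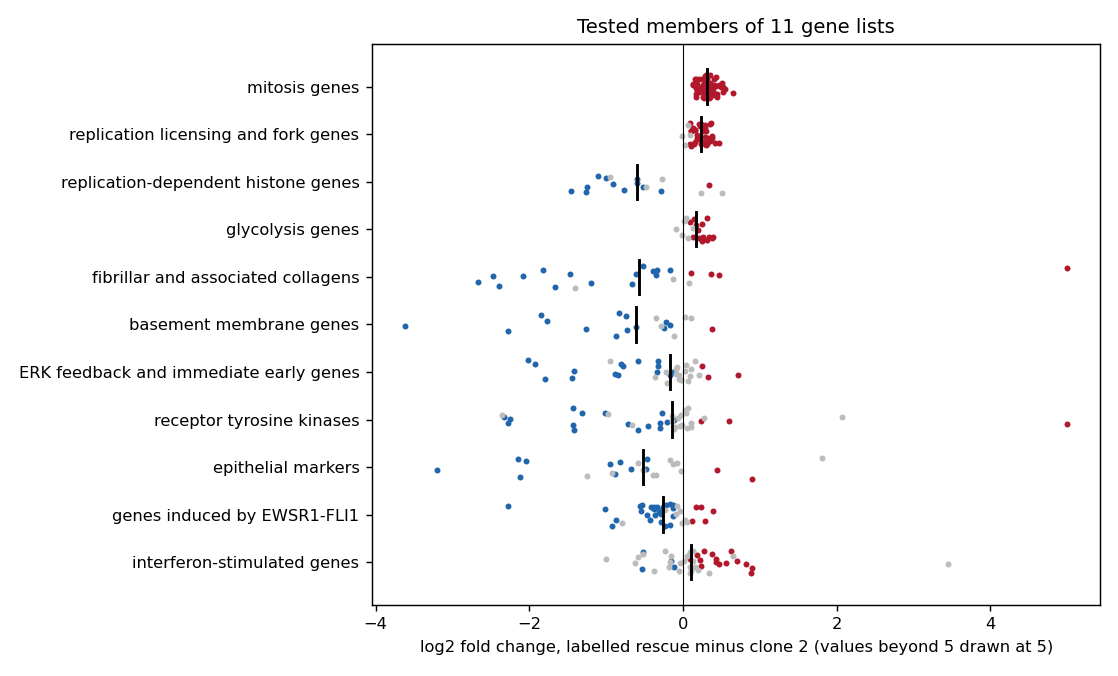
Each point is a tested member of 1 of 11 gene lists, placed by its log2 fold change, with members called higher in red, called lower in blue and not called in grey, and a black bar at the list's median. Mitosis genes sit in a narrow band from 0.12 to 0.65, whereas collagens and receptor tyrosine kinases spread from below -2 to COL11A1 and ROS1, drawn at 5.

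Markers of other cell types were read as lists, and their part in the other results was not tested. Defining markers of blood and endothelium were near 0 in both lines: PTPRC, the blood cell marker CD45, stood at 0.05701 ± 0.0518 and 0.0632 ± 0.0798 CPM, LYZ at 0.0905 ± 0.0728 and 0.04996 ± 0.0433 CPM and CDH5, VE-cadherin, at 0.0477 ± 0.0464 and 0.0379 ± 0.00106 CPM. Of 19 blood markers 6 were tested and 2 fell, ITGAM and the actin bundler LCP1, from 30.7 ± 0.629 to 20.6 ± 0.972 CPM. The summed level of the 9 counted was 175 to 181 CPM in clone 2 and 154 to 159 CPM in the libraries labelled rescue, most of it from VAV1, at 140.1 ± 3.46 and 132 ± 2.82 CPM. Endothelial markers had 2 rises and 2 falls among 6 tested of 17 listed, with EGFL7 falling from 38.1 ± 2.53 to 23.6 ± 0.575 CPM and SOX18 rising from 7.57 ± 0.634 to 11.3 ± 0.954 CPM, and summed levels of 66.2 to 75.6 and 55.3 to 57.6 CPM. Without clone 2 replicate 1, 1 endothelial marker fell.

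Epithelial markers fell in 10 and rose in 2 of 23 tested, of 43 listed. KRT8, a keratin of simple epithelia, stood at 15.6, 15.6 and 18.4 CPM in clone 2 and at 3.78, 4.07 and 4.09 CPM in the libraries labelled rescue, a log2 change of -2.05 (SE 0.092), and its partner KRT18 fell from 141 ± 14.8 to 76.5 ± 4.87 CPM. EPCAM, an adhesion protein of epithelia, fell from 1.82 ± 0.0918 to 0.416 ± 0.0303 CPM and JUP, plakoglobin, from 84.8 ± 1.51 to 43.9 ± 2.82 CPM. GRHL3, a factor of epidermal barrier formation, rose from 1.34 ± 0.0909 to 2.48 ± 0.282 CPM. The other rise, of the cadherin CDH3, was lost without clone 2 replicate 1 or 3 or any 1 rescue library (adjusted p = 0.0506 to 0.265), with DESeq2 and with upper quartile scaling. Wild-type held 7.59 ± 0.905 CPM of KRT8 and clone 1 504 ± 20.6 CPM. The list summed to 1479 to 1496 CPM in clone 2 and 1213 to 1239 CPM in the libraries labelled rescue, with PKP1, plakophilin 1, giving more than any other member, 904 ± 25.7 and 857 ± 11.9 CPM.

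Markers of fibroblasts and mesenchymal stem cells fell in 10 and rose in 5 of 21 tested, with a summed level of 405 to 449 CPM in clone 2 and 256 to 272 CPM in the libraries labelled rescue. PDGFRA was near 0 in both, at 0.0492 ± 0.0507 and 0.0255 ± 0.0441 CPM. DCN, decorin, fell from 7.68 ± 0.611 to 3.83 ± 0.595 CPM and ACTA2, smooth muscle actin, from 12.2 ± 1.28 to 5.57 ± 0.598 CPM, while PRRX1, a mesenchymal homeobox factor, rose from 13.3 ± 0.6196 to 17.8 ± 0.884 CPM and ENG, endoglin, from 28.2 ± 1.54 to 33.9 ± 0.674 CPM. Neuronal genes fell in 15 and rose in 5 of 32 tested, and 5 of the falls and 1 of the rises reached 2-fold. PRPH, the filament gene of peripheral neurons described above, rose. The highest log2 change of the list was 1.46, and the members named next are all from the falls. CACNA1A, a neuronal calcium channel, fell from 2.54 ± 0.0521 to 0.406 ± 0.103 CPM, NEFM, a neurofilament, from 60.3 ± 1.99 to 38.4 ± 1.05 CPM, SYT1, the calcium sensor of vesicles, from 353 ± 23.7 to 283 ± 4.11 CPM and the synaptic vesicle protein SYP from 6.61 ± 0.303 to 3.55 ± 0.735 CPM. Genes of glia and the neural crest had 11 rises and 11 falls among 27: beside FABP7 and APOD, SNAI1, a repressor of E-cadherin, fell from 3.55 ± 0.493 to 1.34 ± 0.134 CPM, its relative SNAI2 from 5.27 ± 0.477 to 3.36 ± 0.1701 CPM, and PAX6, an eye and brain factor, rose from 11.9 ± 1.26 to 17.3 ± 1.199 CPM.

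Notch signalling passes between neighbouring cells through ligands and receptors in their membranes. Of 25 genes 11 fell and 2 rose. JAG2, a ligand, stood at 15.3, 12.6 and 14.4 CPM in clone 2 and at 4.81, 3.797 and 3.36 CPM in the libraries labelled rescue, a log2 change of -1.83 (SE 0.10), and DLK1, an imprinted ligand-like protein, went from 17.5, 16.6 and 16.4 CPM to 6.72, 5.97 and 6.27 CPM. NOTCH3 fell from 42.96 ± 2.37 to 25.7 ± 1.17 CPM, and the feedback target NRARP from 19.5 ± 1.38 to 9.796 ± 0.624 CPM. The target HEY1 rose from 10.8 ± 0.111 to 13.9 ± 2.23 CPM and NOTCH2 from 124 ± 7.54 to 138 ± 7.04 CPM. BMP and SMAD genes had 9 rises and 9 falls among 24; this pathway is a known inducer of ID genes. The extracellular antagonist CHRD, chordin, fell from 0.745 ± 0.118 to 0.113 ± 0.0347 CPM and the homeobox target MSX1 from 46.6, 42.2 and 48.6 CPM to 19.4, 21.4 and 19.2 CPM, while MSX2 rose from 8.34 ± 0.526 to 13.7 ± 1.35 CPM and the inhibitory SMAD6 and SMAD7 rose from 11.4 ± 0.964 to 14.6 ± 0.578 CPM and from 11.5 ± 1.48 to 15.05 ± 1.27 CPM. WNT target genes had 6 rises and 4 falls among 18: LEF1, a factor at WNT targets, fell from 17.9 ± 1.56 to 9.52 ± 0.4295 CPM, the receptor FZD8 from 60.6 ± 4.09 to 36.5 ± 0.946 CPM, and FZD4 rose from 48.9 ± 0.370 to 70.2 ± 0.548 CPM. TGF-beta genes had 7 rises and 4 falls among 22, and 2 of the falls but 0 of the rises reached 2-fold. The receptor TGFBR2 rose from 11.9 ± 0.365 to 17.2 ± 0.629 CPM.

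Interferon-stimulated genes rose in 15 and fell in 4 of 43, with a median of 0.10. IFI44 stood at 14.3, 12.8 and 13.6 CPM in clone 2 and at 22.5, 21.8 and 22.2 CPM in the libraries labelled rescue, a log2 change of 0.70 (SE 0.068). IFI44L rose from 2.47 ± 0.2304 to 4.59 ± 0.194 CPM, IFI35 from 2.26 ± 0.223 to 4.02 ± 0.166 CPM and OASL from 1.03 ± 0.125 to 1.89 ± 0.257 CPM, while OAS3, a sensor of double-stranded RNA, fell from 9.002 ± 0.148 to 6.204 ± 0.5099 CPM. Without clone 2 replicate 1 or rescue replicate 1, 2 genes of the list fell. MHC class I genes had 3 rises and 4 falls among 17, 17.6% and 23.5% against 19.3% and 19.9% of all genes, so no direction is read from that list. HLA-B fell from 34.6 ± 2.43 to 25.01 ± 1.396 CPM and HLA-E from 165 ± 3.63 to 127 ± 3.28 CPM, and the trimming peptidase ERAP2 rose from 2.99 ± 0.201 to 5.24 ± 0.165 CPM. HLA genes resemble each other and their reads may be shared.

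Glycolysis genes moved by small amounts. Of 21 glycolysis genes 14 rose and 0 fell (1 fell with upper quartile scaling), with a median of 0.17. LDHA, lactate dehydrogenase, rose from 1239 ± 53.8 to 1473 ± 24.7 CPM, ALDOA from 1389.8 ± 36.9 to 1667 ± 12.3 CPM, and the glucose transporter SLC2A1 from 46.3, 49.9 and 47.7 CPM to 60.7, 61.1 and 59.6 CPM, a log2 change of 0.34 (SE 0.049). Of 19 hypoxia target genes 4 rose and 6 fell, with VEGFA, an angiogenic growth factor, falling from 56.8 ± 1.06 to 40.8 ± 2.18 CPM and the mitophagy receptor BNIP3 from 27.4 ± 2.32 to 19.8 ± 1.13 CPM. In lipid synthesis, 10 of 13 fatty acid genes rose and 0 fell, led by SREBF1, the factor that drives the pathway, from 73.8, 71.5 and 68.4 CPM to 113, 112 and 108 CPM, a log2 change of 0.64 (SE 0.042). Cholesterol genes were divided, 6 up and 8 down of 25. Without the filter on low counts the balance of that list turned, to 8 up and 7 down, and 3 rose without rescue replicate 2, with DESeq2 and with upper quartile scaling.

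Heat shock genes rose in 11 and fell in 1 of 14, the rises including HSP90AA1, HSPA8 and the co-chaperone DNAJB1, from 97.8 ± 1.595 to 116 ± 4.91 CPM. The fall, of the co-chaperone BAG3, was lost without clone 2 replicate 1 or 2 or rescue replicate 1 or 3 (adjusted p = 0.0985 to 0.241), with DESeq2 and with no filter on low counts. MYC targets rose in 11 and fell in 0 of 22, with ODC1, which starts polyamine synthesis, rising from 447 ± 5.95 to 535 ± 21.2 CPM, although MYC itself fell from 523 ± 15.4 to 465 ± 5.95 CPM. In that list 1 gene fell without clone 2 replicate 3 or rescue replicate 1, with a replicate block, with upper quartile scaling and in a fit of the 6 libraries alone. Ribosomal protein genes rose in 18 and fell in 9 of 75, but in 8 and 14 with upper quartile scaling and in 10 and 13 without rescue replicate 2, and 3 to 5 fell without clone 2 replicate 1 or 3 or rescue replicate 1 or 3, so no direction is read from that list. Mitochondrially encoded genes fell in 9 and rose in 2 of 15. MT-ND2 went from 2931, 2985 and 2912 CPM to 2379, 2201 and 2391 CPM, a log2 change of -0.34 (SE 0.036), and MT-ND1 from 1847, 1887 and 1757 CPM to 1531, 1360.1 and 1473 CPM, while the ribosomal RNA MT-RNR1 rose from 376 ± 10.5 to 453 ± 17.5 CPM. The call of MT-ND4 was lost without rescue replicate 2 (adjusted p = 0.119), and without clone 2 replicate 1 or rescue replicate 1, 1 gene of the list rose. These transcripts took 4.202 to 4.37% of counts in clone 2 and 3.64 to 4.02% in the libraries labelled rescue, and the lowest share was that of rescue replicate 2.

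Genes of some chromosomes moved together by small amounts. Among genes with a mean of 1 CPM or more, 23.3% rose and 21.1% fell. On chromosome 3, 339 of 774 such genes rose, 43.8%, and 94 fell, with a median log2 fold change of 0.12. The abundant genes RPSA, EIF4G1 and RPL15, for the ribosome and translation, had log2 changes of 0.10, 0.11 and 0.13. They were chosen among the genes that rose there. On chromosome 2, which carries ID2, 341 of 939 fell, 36.3%, with a median of -0.087, and on chromosome 21 50 of 138 fell and 5 rose, with a median of -0.094. Smaller shifts were seen elsewhere, such as a median of 0.072 on chromosome 15, where 32.2% rose and 13.9% fell. On chromosome 13 the median was -0.042, and 14.3% rose and 30.5% fell. The medians of the 3 libraries labelled rescue, relative to the mean of clone 2, were 0.12, 0.11 and 0.12 on chromosome 3, -0.07, -0.085 and -0.08 on chromosome 2 and -0.093, -0.10 and -0.10 on chromosome 21. Those of the clone 2 libraries, which lie near 0 because their own mean is the reference, were all within 0.0066 of 0 on these chromosomes. Wild-type libraries, on the same scale, stood at 0.18, 0.19 and 0.21 on chromosome 3 and at -0.061, -0.09 and -0.073 on chromosome 21, on the same side of clone 2 as the libraries labelled rescue, but at 0.025, 0.013 and 0.04 on chromosome 2, on the other side. On chromosomes 11 and 18 wild-type lay at 0.57 to 0.59 and 0.34 to 0.36, and the libraries labelled rescue at 0.039 to 0.047 and 0.024 to 0.037.

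Along the genome, 531 consecutive stretches of 25 such genes were formed. All 10 stretches with the highest medians lay on chromosome 3, where 27 of 30 stretches were above 0, including all 14 that ended before 73 Mb. On chromosome 2, 31 of 37 stretches were below 0 and 7 of the 10 lowest stretches of the genome lay there. The stretch that holds ID2, from 217730 to 9939590 of chromosome 2, was an exception with a median of 0.096, and the lowest ran from 85394748 to 87825952 with a median of -0.33. Gene counts cannot tell a change in copy number from a change in transcription.

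**Figure D5:**
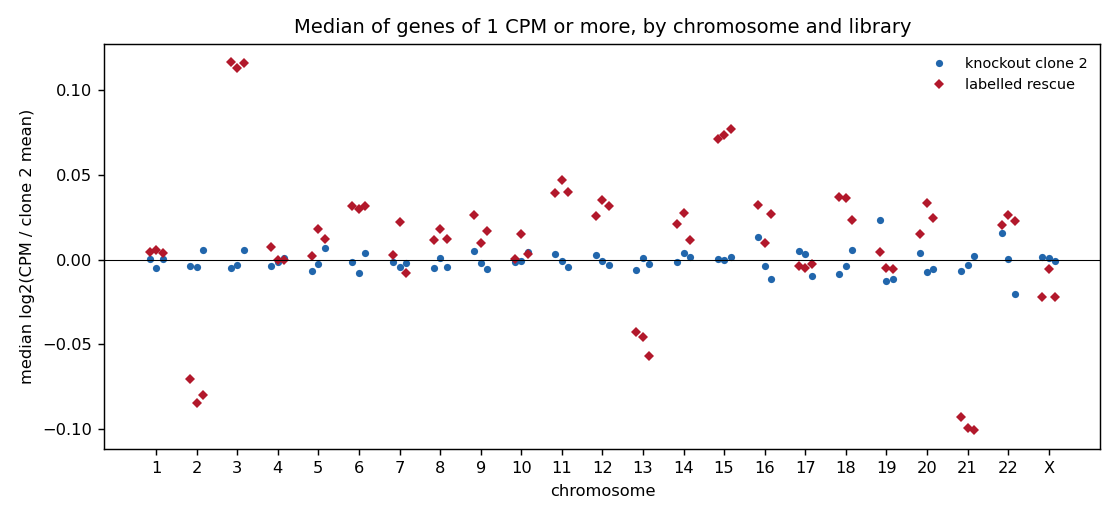
For each chromosome, points show the median over its genes of 1 CPM or more of log2(CPM / mean CPM of clone 2), with 1 blue circle per clone 2 library and 1 red diamond per library labelled rescue. Red points stand near 0.12 on chromosome 3 and between -0.07 and -0.10 on chromosomes 2 and 21, and the 3 libraries of a line lie close together on each of these. Blue points lie near 0 because their own mean is the reference.

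Scarce RNAs that passed the filter had a lower sum in the libraries labelled rescue than in clone 2. A gene scarce elsewhere passes the filter through the line in which it is high, so this sum describes the genes that passed and no more. For the 3240 tested genes with a mean under 1 CPM over all 12 libraries, the summed level was 1910.0 to 1942 CPM in clone 2 and 1597 to 1658 CPM in the libraries labelled rescue. It was 1418 to 1511 CPM in wild-type and 1897 to 1951 CPM in clone 1. By the mean over the 6 libraries instead, 3275 tested genes were below 1 CPM, of which 506 fell and 75 rose. The libraries of clone 2 and those labelled rescue did not overlap in the summed level, and their total counts did.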

How the data were processed

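RNA of TC71 cells, polyadenylated and made into stranded libraries per the labels' protocols, was sequenced in 12 libraries, 3 for each of 4 lines. The authors deposited 1 table of raw counts per gene, whole numbers with no normalization, for 21569 genes; total counts ran from 19420408 to 29748084. FastQC, STAR and hg38 are named in the submitters' processing notes; which counter, strand setting and annotation were used was not given in the sources used here. Samples were grouped by their titles, and every column was matched to 1 sample. Positions were taken from GENCODE 29 (hg38), which matched 20825 identifiers. Symbols came from a separate list of gene names, which gave 18647 genes a symbol.

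Genes passed the filterByExpr rule with a minimum count of 10, which left 17084. Counts were scaled by TMM and tested with the quasi-likelihood test of edgeR 4.0.16 in R 4.3.3, fitted on all 12 libraries with 8 residual degrees of freedom, and p-values were adjusted by Benjamini and Hochberg over all genes tested. SDs are over n = 3 libraries. Exact 95% intervals of ratios and the floor of 3 counts cover counting error only. The fit was tested on simulated data. Pairs of replicates had chi-squares of 1.54 to 3.16 times their degrees of freedom, above sampling noise.

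Named genes are ID2; the 15 called genes that rose and the 15 that fell most with at least 1 CPM in the higher line, no overlap between lines and a symbol of a known gene; the 8 of each direction with at least 50 CPM; the 8 of each direction with the largest difference in CPM; up to 4 called members of each list, with its defining members; and up to 3 abundant called genes of a chromosome whose median departed by 0.1 or more. The genes named for a chromosome were taken from those that moved in the direction of its median. Others were chosen after their values were seen. Some genes that this rule names are not reported here. The members, lists and tests were chosen with earlier results of these data known.

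Alternatives were DESeq2 1.42.0 size factors and its Wald test, upper quartile scaling, limma 3.58.1 voom, a filter of 1 CPM in 3 libraries or none, a fit of the 6 libraries, a replicate block, and leaving out each of the 6 libraries in turn.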

Additional observations from a re-analysis of the deposited data

How the results depend on the processing

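ID2 fell in all 14 alternatives, with log2 changes of -0.32 to -0.23 without 1 library. With a filter of 1 CPM in 3 libraries, which tests fewer scarce genes, 47 genes rose and 505 fell by 2-fold or more, against 82 and 764. All other counts over all genes stayed within 1.5 times of their main value, and falls of 2-fold or more outnumbered rises in every alternative. Which direction had more genes in all turned with the setting: 3904 rose and 3089 fell with no filter, 2894 and 2843 with DESeq2, 2776 and 3871 with upper quartile scaling. Without 1 library, 3141 to 3335 genes rose, 2774 to 2976 fell, and 77 to 100 and 714 to 800 did so by 2-fold or more. Of 110 list counts 19 moved by over 1.5 times in at least 1 setting. The median log2 change of chromosome 3 ran from 0.096 with upper quartile scaling to 0.15 with no filter. In the same settings that of chromosome 2 ran from -0.11 to -0.059. For chromosome 21 it ran from -0.12 with upper quartile scaling to -0.064 without rescue replicate 3. Of 248 named called genes, 232 to 248 were tested in each alternative; none of those tested turned direction, and at most 15 calls were lost, without rescue replicate 3. Deviations of same-numbered libraries correlated at 0.036, -0.056 and 0.044, within the -0.10 to 0.076 of other-numbered ones. No pairing by number was seen, but so few correlations cannot exclude a shared batch. With a replicate block 3367 genes rose and 3416 fell, 78 and 760 by 2-fold or more, and ID2 came to -0.29. Depth limits scarce genes: under 1 CPM a gene has few reads per library, so a difference may go uncalled there. Of the 3275 tested genes under 1 CPM over the 6 libraries, 506 fell and 75 rose. A gene not called at this level may or may not differ.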

Other observations

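Several groups of genes that belong to none of the results above are given as values. A cluster of near-identical MBD3L genes on chromosome 19, relatives of a methyl-CpG binding protein, stood far lower in the libraries labelled rescue; these genes were chosen after their values were seen. MBD3L3 (hg38 chromosome 19, 7056209 to 7058640, minus strand) went from 46.5, 43.6 and 59.3 CPM to 6.204, 5.97 and 7.84 CPM, against 10.4 ± 0.189 CPM in wild-type and 93.7 ± 4.87 CPM in clone 1. MBD3L2, MBD3L2B, MBD3L4 and MBD3L5 had log2 changes of -2.51, -2.77, -2.63 and -2.77, and the split of reads between such copies is uncertain. Of the sodium channel subunits, chosen in the same way beside SCNN1G, SCNN1B, its neighbour on chromosome 16, fell from 7.305 ± 0.694 to 1.13 ± 0.177 CPM and SCNN1D had a log2 change of -0.24, a call lost without clone 2 replicate 1 or 3 or rescue replicate 2 or 3 (adjusted p = 0.13 to 0.219), while SCNN1A, at 0.0826 ± 0.0284 and 0.101 ± 0.0203 CPM, did not pass the test. Beside the metallothionein MT2A, MT1X rose from 0.516 ± 0.212 to 1.11 ± 0.0921 CPM and MT1F, at 0.682 ± 0.0835 and 0.942 ± 0.374 CPM, did not pass the test.

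Of ion channel genes of excitable cells 4 rose and 13 fell of 34 tested, with the calcium channels CACNA1H from 2.93 ± 0.474 to 0.5698 ± 0.0908 CPM and CACNA1G from 1.27 ± 0.189 to 0.526 ± 0.212 CPM. Of GABA-A and glutamate receptor genes 0 rose and 2 fell of 15 tested, 13.3% against 19.9% of all genes, so no direction is read from that list. The falls were those of the glutamate receptor GRM2, from 18.7 ± 1.83 to 8.47 ± 1.08 CPM, and of GRIK1, a call lost without clone 2 replicate 1 or rescue replicate 2 (adjusted p = 0.0831 to 0.0861) and with DESeq2. Axon guidance genes went both ways: 12 rose and 15 fell of 46 tested, with NRP1, a receptor for semaphorins and VEGF, falling from 37.4 ± 2.31 to 17.4 ± 0.837 CPM, SEMA5B from 14.2 ± 1.26 to 6.77 ± 0.566 CPM and SEMA3A, a secreted repellent, rising from 24.97 ± 2.62 to 45.6 ± 3.49 CPM. Of cadherins 5 rose and 2 fell of 10 tested, with CDH7 rising from 4.77 ± 0.405 to 7.92 ± 0.386 CPM and CDH11, of mesenchyme, falling from 231 ± 4.70 to 175 ± 6.72 CPM. Of integrins 2 rose and 1 fell of 16 tested, 12.5% and 6.25%, both below the shares over all genes. ITGB4 fell from 2.16 ± 0.371 to 1.26 ± 0.346 CPM. With no filter on low counts 4 integrins rose, and 1 with a filter of 1 CPM in 3 libraries. Planar cell polarity genes rose in 4 and fell in 3 of 18 tested, 22.2% and 16.7% against 19.3% and 19.9% of all genes. No direction is read from that list, in which 1 of the falls reached 2-fold. WNT5A, a ligand of the pathway, fell from 41.7 ± 3.78 to 33.9 ± 2.89 CPM.

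Among imprinted genes 6 rose and 7 fell of 30 tested, 20% and 23.3% against 19.3% and 19.9% of all genes, so no direction is read from that list. PEG10 rose from 254 ± 12.01 to 351 ± 12.4 CPM and MEG3 fell from 2.56 ± 0.0874 to 1.30 ± 0.106 CPM. Of cancer-testis genes 1 rose and 5 fell of 18 tested, with PRAME falling from 29.3 ± 1.74 to 17.6 ± 0.522 CPM and PIWIL4, of the piRNA pathway, rising from 1.101 ± 0.107 to 2.39 ± 0.345 CPM; 2 rose without clone 2 replicate 3 or rescue replicate 2, and 3 fell in a fit of the 6 libraries alone. Of HOX genes 1 rose and 4 fell of 29 tested, 3.45% and 13.8%, both below the shares over all genes. HOXD13 rose from 135 ± 2.05 to 148 ± 1.44 CPM. In that list 1 fell without rescue replicate 1 and 2 fell without clone 2 replicate 3 or rescue replicate 3. Without clone 2 replicate 1 or 2 or rescue replicate 3, and with no filter, 2 of them rose. Of DNA methylation and polycomb genes 10 rose and 8 fell of 30 tested, with PHF19 rising from 96.3 ± 4.27 to 129.9 ± 3.08 CPM and the demethylase TET3 falling from 105 ± 4.21 to 83.1 ± 7.37 CPM. Of apoptosis regulators 7 rose and 7 fell of 33 tested, 21.2% each way and near the shares over all genes, so no direction is read from that list. PMAIP1 (NOXA) fell from 31.01 ± 0.425 to 21.3 ± 1.84 CPM. Of ATF4 targets 6 rose and 6 fell of 24 tested, and 1 of the rises but 0 of the falls reached 2-fold. CEBPB fell from 30.5 ± 1.59 to 20.4 ± 0.6195 CPM. Of unfolded protein response genes 3 rose and 6 fell of 20 tested, with DNAJB9 from 15.4 ± 1.04 to 11.2 ± 1.32 CPM. NF-kB targets rose in 3 and fell in 3 of 14 tested, 21.4% each way and near the shares over all genes. In that list 2 of the falls but 0 of the rises reached 2-fold. NFKBIA, the inhibitor of NF-kB, rose from 43.03 ± 4.402 to 49.5 ± 2.02 CPM. Of myogenic genes 1 rose and 3 fell of 6 tested, with TNNT1, a troponin, falling from 39.6 ± 1.42 to 23.05 ± 2.46 CPM, and of bone and cartilage genes 1 rose and 5 fell of 10 tested, with DLX3 falling from 1.67 ± 0.0364 to 0.733 ± 0.0699 CPM; the rise in the latter list was lost without clone 2 replicate 1 or 2 or rescue replicate 2.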
